A study of Danio rerio and Aquarana catesbeiana with 12 samples.

Results

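Cells divide by passing a set of ordered steps. Cyclins switch on cyclin-dependent kinases (CDKs), G1 kinases release E2F transcription factors from the retinoblastoma protein, origins of replication are loaded with the MCM helicase, polymerases copy the DNA, and the mitotic kinases Aurora and Polo drive the separation of the chromosomes. CDK inhibitors of the Cip/Kip family hold cells out of this cycle. The retinal pigment epithelium (RPE), a pigmented sheet behind the photoreceptors that supports them and recycles retinoids, consists in the adult of cells that have largely left the cycle, while the fish retina keeps growing from dividing cells at its margin.

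The genes described here are those of a zebrafish count table whose symbol marks them as cell cycle or DNA replication genes: A, B, D and E cyclins, CDK1, CDK2, CDK4 and CDK6, CDK inhibitors, genes named cdc, MCM and origin recognition proteins, pcna, top2a, mki67, Aurora and Polo kinases, bub1, mad2l, E2F factors, ribonucleotide reductase, and DNA polymerases delta and epsilon with primase. They were chosen by the letters of the symbol alone, and 69 of 18315 records (0.377%) met the choice, each with 1 record per symbol. By name, 50 of the 69 act in the cycle, in replication or in the ubiquitin machinery that drives the cycle, and 19 carry such a symbol but are known for another process. That group holds the small GTPase cdc42 with its relatives and effectors, the chaperone factors cdc37 and cdc37l1, the splicing factors cdc40 and cdc5l, the transcription elongation factor cdc73, and cdc123, aurkaip1, mcm3ap, mki67ip and poldip2. Some genes without a record among the 69, such as cdk4, are described further on from records under clone names. The genes cdk2, cdk6, mki67, aurka, bub1 and mad2l1 were not found among the 69 or those further records. No A or B cyclin was found there either, nor were mcm3, rrm2, cdc45 and cdc7. Every record of the table reached 1 CPM in 3 or more libraries, so the levels below cover only genes that did.

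RPE was dissected from zebrafish (Danio rerio) after 3 weeks of thyroid hormone or of vehicle, with 3 libraries in each group. Strain, age, dose and the number of fish behind a library are not given in the labels. The labels do not say that libraries came from separate fish, so p-values measure only the spread between these libraries, which may be technical. Total RNA was purified on a column with DNase treatment and amplified into cDNA, and the 6 libraries shared a sequencing lane.

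Library totals ranged from 6647597 counts (hormone replicate 1) to 12530697 (hormone replicate 2), so that 3 counts, the limit that a count of 0 allows, stood for 0.238 to 0.400 CPM (counts scaled to a library size of 1e+06). CPM values below are scaled with TMM factors and listed for replicates 1, 2 and 3 of a group. RPE markers were abundant: rpe65a, the retinoid isomerase that defines this epithelium, was at 12453, 32335 and 26093 CPM with hormone and 7480, 7211 and 6688 CPM with vehicle. Photoreceptor RNA was abundant too, with gnat1, the rod transducin subunit, at 6692 to 11121 CPM over the 6 libraries. With vehicle, 15 rod markers summed to 76222 to 87790 CPM and 18 RPE markers to 20169 to 21394 CPM. With hormone the sums were 50919 to 61629 CPM for rods and 23219 to 61902 CPM for RPE. The levels below are therefore those of a mixed tissue. In such bulk tissue, fewer cells of a type and less RNA per cell cannot be told apart.

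Per length, most of the replication and mitosis genes were low. The median of the 69 genes was 4.14 RPKM (CPM per kilobase of record length, averaged over 6 libraries) beside 6.36 RPKM for all records, and 28 of the 69 lay above the latter. Of the 24 genes grouped here under replication or mitosis (8 of origins and helicase, 11 of DNA synthesis, 4 of mitosis and centrioles, and cdk1), the median was 1.04 RPKM and 18 were under 2 RPKM. The exceptions above the median of all records were 4 genes of DNA synthesis. They were pcna, the sliding clamp that holds polymerases on DNA, at 21.3 RPKM, rrm1, the large subunit of ribonucleotide reductase, at 7.45 RPKM, rrm2b, a small subunit of that enzyme, at 7.32 RPKM, and pole3, a histone-fold subunit of polymerase epsilon, at 6.73 RPKM.

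At the bottom of the order, pole, the catalytic subunit of polymerase epsilon, was at 0.348 RPKM and mcm2, a subunit of the replicative helicase, at 0.377 RPKM. Within the helicase, mcm6 at 0.443 RPKM, mcm4 at 0.658 RPKM and mcm5 at 0.910 RPKM were likewise low, and mcm7 stood apart at 4.14 RPKM. The mitotic genes plk4, a kinase of centriole duplication, cdc20, an activator of the anaphase-promoting complex, aurkb, the kinase of the chromosomal passenger complex, and plk1 ranged from 0.757 to 1.03 RPKM. The kinase of mitotic entry, cdk1, was at 0.603 RPKM.

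Genes outside the replication and mitosis groups filled the top of the order. The highest of the 69 was plk3, a Polo-family kinase known in mammals for stress responses, at 330.6 RPKM, rank 173 of all records. Next came cdc42, a GTPase of cell polarity and the actin cytoskeleton, at 149.8 RPKM. The phosphatases cdc14aa, cdc14ab and cdc14b, whose yeast counterpart reverses CDK phosphorylation at the end of mitosis, were at 63.5, 58.8 and 29.3 RPKM. Further genes in the top 10 were cdc37, a partner of Hsp90 in the folding of kinases, at 45.8 RPKM, ccnd2a, a D-type cyclin, at 29.1 RPKM, cdc34b, a ubiquitin-conjugating enzyme, at 25.6 RPKM, cdc73 at 24.7 RPKM and cdc5l at 21.7 RPKM. Counting reads between near-identical copies can split them, so the levels of the pairs cdc14aa and cdc14ab, ccnd2a and ccnd2b, cdc34a and cdc34b, plk2a and plk2b, and of cdc42, cdc42l and cdc42l2, are uncertain to that extent.

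**Figure D1:**
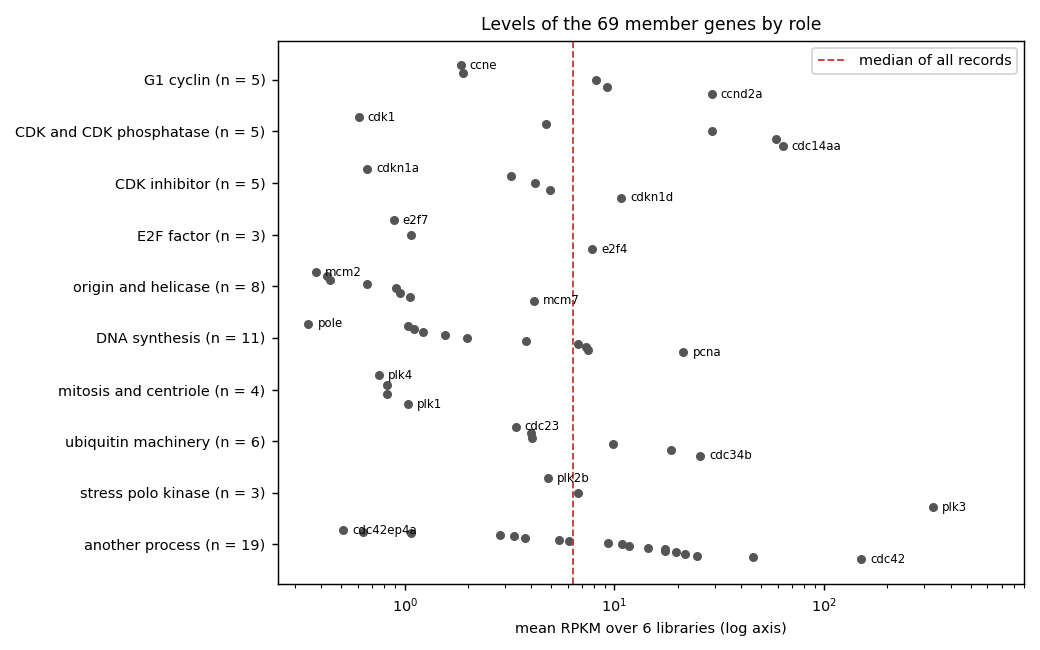
Mean RPKM over 6 libraries (horizontal, log axis) of each of the 69 genes (points), grouped by role, with the median of all 18315 records as a dashed line. Origin, helicase and mitosis genes lie left of the line, with mcm7 the highest of them at 4.14 RPKM, while plk3 at 330.6 RPKM and cdc42 at 149.8 RPKM lie farthest to the right.

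Whether 3 weeks of hormone moved these genes was asked by comparing hormone with vehicle. None of the 69 passed edgeR's quasi-likelihood test at an adjusted p under 0.05 (Benjamini-Hochberg over all records), where 0.00546% of all records passed, which is 1 record. The lowest adjusted p among the 69 was 0.339. At an unadjusted p under 0.05, edgeR gave 6 of the 69 (8.70%) beside 6.88% of all records. DESeq2 called 2 of the 69 (2.90%), beside 1.59% of all records: ccne2 lower, as were 0.688% of all records, and cdc37 higher, as were 0.906%. On simulated data, 50 of 214 DESeq2 calls were of unchanged records, beside 5 of 146 edgeR calls. There, edgeR found only 18% of the changes of 1 on the log2 scale. Changes were planted only in records with a mean above 2 CPM, so this share does not cover the rarest genes. The simulated counts came from a single run with edgeR's own dispersion estimates, so the 2 tools were not compared on neutral ground. Under limma voom no gene of the 69 passed, where 0 of all records passed. None of the 69 carried the mark of the authors' deposited table, which 0.934% of all records carried.

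Across the 69 genes, fold changes were small and went both ways. The median log2 fold change (hormone over vehicle) was 0.02, with 37 positive and 32 negative values, beside a median of 0.01 over all records. An absolute log2 fold change under 0.5 was found in 57 of the 69 (82.6%) and in 83.7% of all records. The groups did not overlap with hormone higher in 5 genes (7.25%), beside 6.86% of all records, and with hormone lower in 3 genes (4.35%), beside 6.4% of all records. The remaining 61 genes overlapped. Both the share of calls and the share of separated groups were therefore close to those of the whole table. A change of 2-fold in either direction lay outside the 95% interval for 38 genes, and the others were measured less closely: the SE of the log2 fold change had a median of 0.27 and ranged from 0.11 to 0.95.

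**Figure D2:**
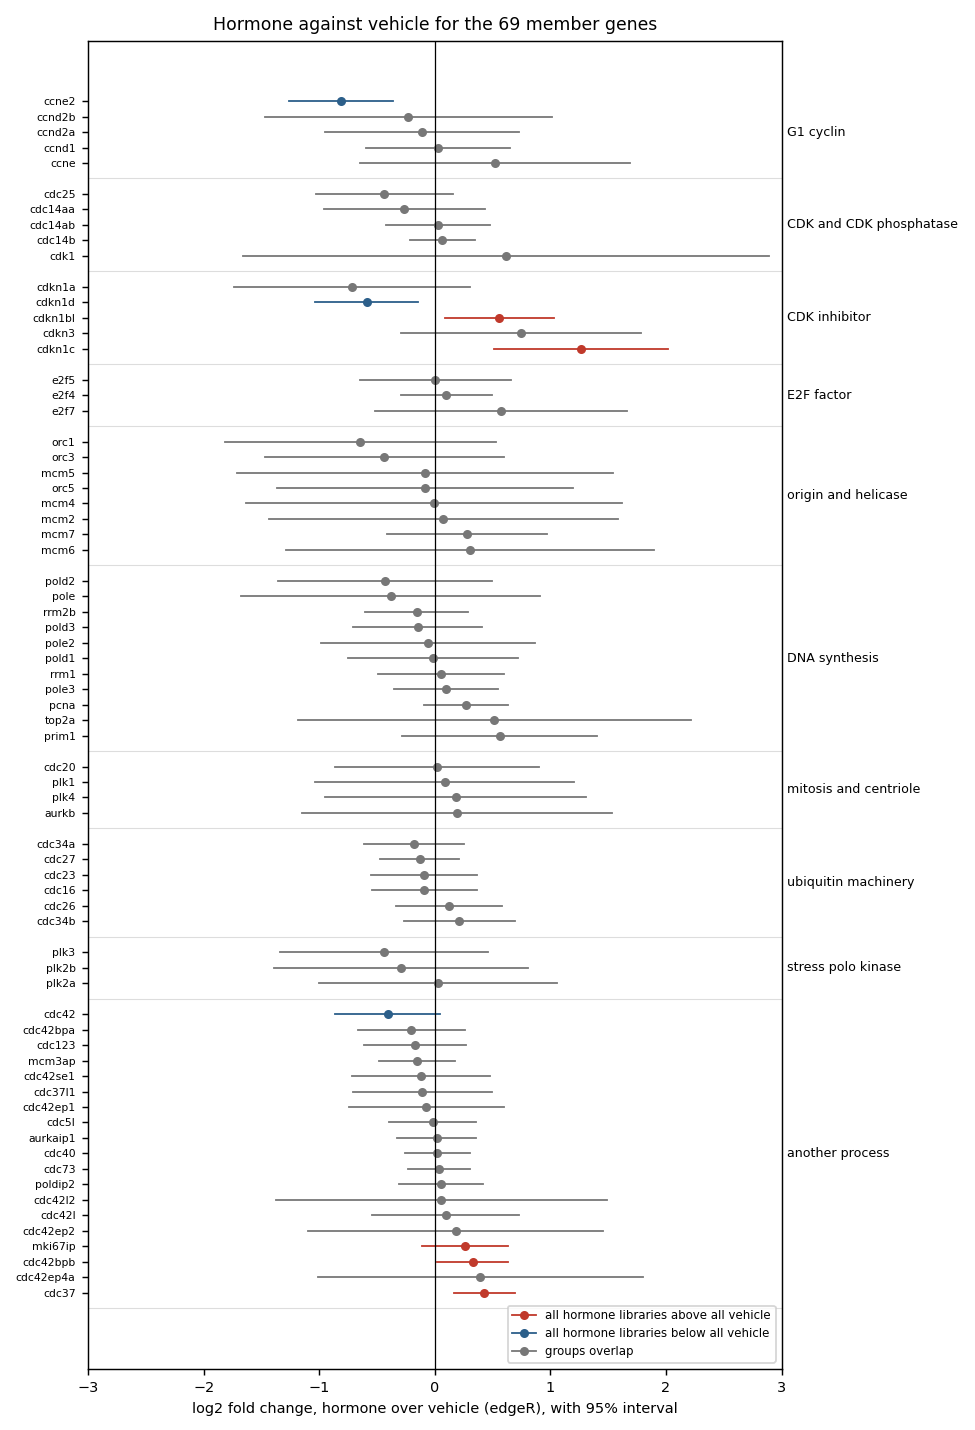
Log2 fold change of hormone over vehicle from edgeR (points) with its 95% interval (lines) for each of the 69 genes, grouped by role. Red marks the 5 genes whose hormone libraries all lie above the vehicle libraries and blue the 3 whose hormone libraries all lie below. The widest intervals belong to cdk1, with 50 counts over 6 libraries, and top2a, whose libraries differ widely within each group.

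Among the G1 cyclins, which open the way into S phase, the clearest difference was in ccne2, an E-type cyclin that activates CDK2. Its level was 15.5, 9.99 and 12.9 CPM with hormone and 22.8, 21.5 and 23.0 CPM with vehicle. All hormone libraries lay below all vehicle libraries, and the vehicle libraries were close together. Group means of 12.8 ± 2.74 and 22.4 ± 0.822 CPM (SD, n = 3 per group) gave a log2 fold change of -0.81 (SE 0.19, 95% interval -1.26 to -0.37), with an adjusted p of 0.339 by edgeR and 0.0187 by DESeq2. Leaving out any library kept it between -0.97 and -0.66.

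The other E-type cyclin, labelled ccne (now ccne1), was at 1.73, 6.28 and 5.66 CPM with hormone and 3.97, 2.26 and 3.40 CPM with vehicle. Its hormone libraries lay on both sides of the vehicle libraries, and the log2 fold change was 0.52 (SE 0.49). The D-type cyclins answer growth signals and activate CDK4 and CDK6. The values of ccnd1 stood at 24.02, 49.2 and 42.9 CPM with hormone and 35.9, 37.3 and 41.0 CPM with vehicle, a log2 fold change of 0.03 (SE 0.26, 95% interval -0.60 to 0.65). Those of ccnd2a ran at 18.9, 52.8 and 38.1 CPM with hormone and 35.4, 37.1 and 46.8 CPM with vehicle, a log2 fold change of -0.11 (SE 0.35), or 0.20 without hormone replicate 1. In both, hormone replicate 1 was the lowest of the 6 libraries and hormone replicate 2 the highest. Hormone replicate 1, the library with the fewest counts, was also the lowest hormone library in RPE markers (mean log2 CPM of 18 genes 7.55, against 8.77 and 8.56) and the highest in inner retina markers (5.49, against 4.12 and 4.36, 22 genes). Whether these played a part in the cyclin levels was not tested. The low paralog ccnd2b was between 0.927 and 2.80 CPM.

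The CDK inhibitors split in direction. The inhibitor named cdkn1c in the file (now cdkn1ca, a counterpart of mammalian p57) was at 4.94, 6.28 and 10.1 CPM with hormone and 2.62, 3.16 and 3.10 CPM with vehicle. Each hormone library was above each vehicle library. The means of 7.10 ± 2.67 and 2.96 ± 0.296 CPM (SD, n = 3 per group) gave the largest absolute log2 fold change of the 69 genes, 1.27 (SE 0.31, 95% interval 0.51 to 2.02), with an adjusted p of 0.389 by edgeR and 0.0565 by DESeq2. The authors' deposited table gives it an unadjusted p-value of 0.00395, without their mark. Its paralog by symbol, cdkn1cb, is among the further records under clone names and is named here after its values were seen. With 104 counts over 6 libraries, cdkn1cb went the other way and its groups overlapped. Its log2 fold change was -0.76 (SE 0.42, 95% interval -1.76 to 0.24). The higher level with hormone thus holds for cdkn1c and not for both copies.

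A relative of mammalian p27, cdkn1bl (now cdkn1ba), was at 16.1, 12.9 and 11.4 CPM with hormone and 9.52, 10.1 and 7.80 CPM with vehicle. Again the groups did not overlap, with a log2 fold change of 0.56 (SE 0.20, 95% interval 0.09 to 1.03) and an adjusted p of 0.638 by edgeR. In the other direction, cdkn1d was at 16.7, 11.6 and 13.9 CPM with hormone and 22.4, 22.6 and 18.2 CPM with vehicle, all hormone libraries below all vehicle libraries, with a log2 fold change of -0.59 (SE 0.19, 95% interval -1.04 to -0.14) and an adjusted p of 0.574 by edgeR. The inhibitor cdkn1a, a relative of mammalian p21, was low, at 0.801, 0.991 and 1.44 CPM with hormone and 1.19, 1.71 and 2.50 CPM with vehicle, and its groups overlapped (log2 fold change -0.72, SE 0.43). A phosphatase that acts on CDKs, cdkn3, was at 3.74, 2.48 and 4.74 CPM with hormone and 1.51, 1.62 and 3.40 CPM with vehicle. Its groups overlapped through vehicle replicate 3, and the log2 fold change was 0.75 (SE 0.43).

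**Figure D3:**
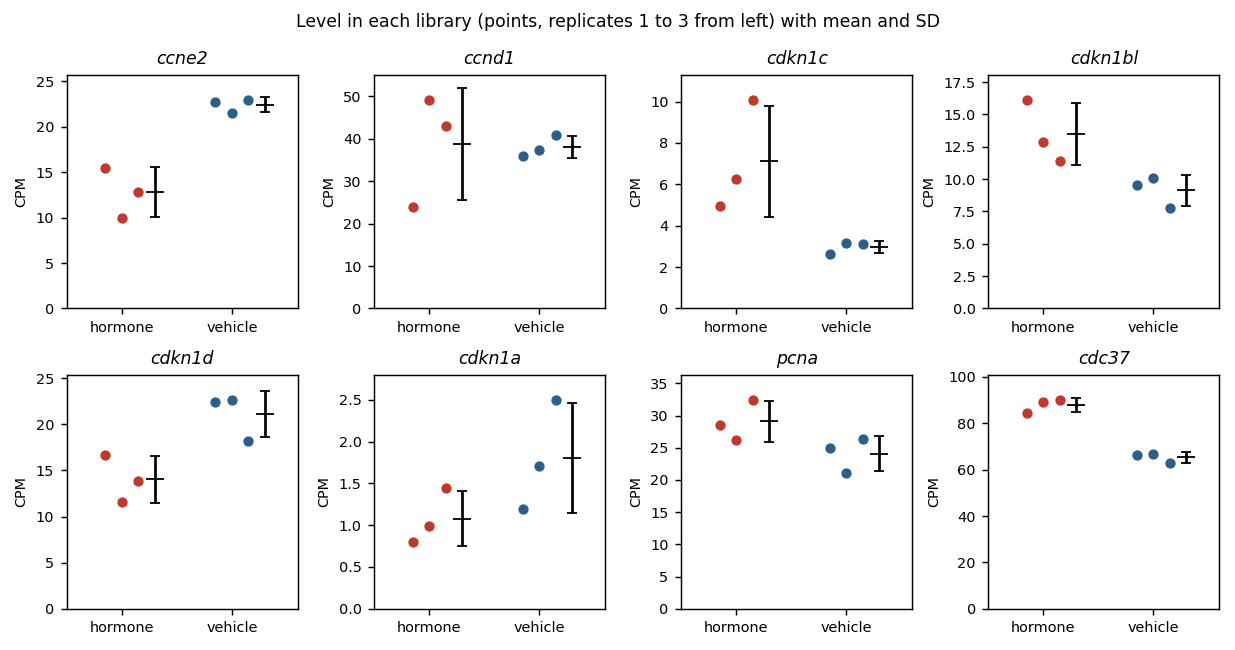
CPM in each library (points, replicates 1 to 3 from left) with the mean and SD of each group, for 8 genes. The hormone libraries of ccne2 and cdkn1d lie below the vehicle libraries, those of cdkn1c, cdkn1bl and cdc37 lie above them, and those of ccnd1, cdkn1a and pcna overlap with them.

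The CDK partners and phosphatases overlapped between groups, as did all but 13.3% of all records. The phosphatase cdc25 (now cdc25b), which removes inhibitory phosphates from CDKs, was at 10.3, 14.9 and 11.3 CPM with hormone and 14.1, 13.8 and 21.8 CPM with vehicle (log2 fold change -0.44, SE 0.25). The log2 fold changes of cdc14aa, cdc14ab and cdc14b were -0.27, 0.03 and 0.07. For cdc14aa, hormone replicate 1 at 184 CPM was the highest of the 6 libraries, while replicates 2 and 3 at 105 and 91.9 CPM lay below the vehicle libraries at 152, 180.3 and 126 CPM. The kinase cdk1 had 10, 13 and 6 counts in the hormone libraries against 0, 10 and 11 in the vehicle libraries. The count of 0 in vehicle replicate 1 allows a level of up to 0.238 CPM. That limit covers counting error only, while the 95% intervals of fold changes also take in the spread between libraries. With 50 counts in all 6 libraries, the log2 fold change of cdk1 was 0.61 (95% interval -1.66 to 2.89). This interval takes in changes of more than 2-fold in either direction.

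Of the E2F factors, e2f4 and e2f5, which repress cycle genes together with pocket proteins in quiescent mammalian cells, had differences of 0.10 (SE 0.17) and 0.00 (SE 0.27) on the log2 scale, with overlap in both. The atypical repressor e2f7, which damps E2F target genes late in S phase, was at 2.13, 3.63 and 5.46 CPM with hormone and 1.82, 1.98 and 3.80 CPM with vehicle, with overlap and a log2 fold change of 0.57 (SE 0.46).

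None of the 24 replication and mitosis genes among the 69 separated hormone from vehicle, where 13.3% of all records did. Medians of the log2 fold change were -0.05 over the 8 origin and helicase genes, -0.02 over the 11 of DNA synthesis and 0.13 over the 4 of mitosis. The most abundant of them, pcna, was at 28.6, 26.3 and 32.4 CPM with hormone and 24.98, 21.02 and 26.3 CPM with vehicle. Hormone replicate 2 fell just inside the vehicle range, and the means of 29.1 ± 3.12 and 24.1 ± 2.75 CPM (SD, n = 3 per group) gave a log2 fold change of 0.27 (SE 0.15, 95% interval -0.09 to 0.63). The enzyme subunit rrm1 was at 17.2, 22.3 and 18.4 CPM with hormone and 16.3, 15.1 and 24.6 CPM with vehicle (log2 fold change 0.05, SE 0.23), and rrm2b had a log2 fold change of -0.16 (SE 0.19). Of the rarer genes, prim1, the catalytic subunit of primase, had 0.56 (SE 0.35), and orc1, the largest subunit of the origin recognition complex, had -0.65 (SE 0.49).

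For several of these replication genes the spread within a group was larger than the gap between the group means. Topoisomerase top2a, which untangles chromosomes before they separate, had 47, 133 and 22 counts with hormone and 34, 25 and 89 with vehicle. In CPM this was 6.27, 10.98 and 2.27 against 2.70, 2.26 and 8.90, with the highest hormone library 4.85-fold above the lowest, and the log2 fold change was 0.51 (SE 0.71, 95% interval -1.19 to 2.21), or -0.13 without hormone replicate 2. The helicase subunit mcm4 had 16, 30 and 13 counts with hormone and 11, 11 and 42 with vehicle (log2 fold change -0.01, 95% interval -1.64 to 1.62), and without vehicle replicate 3 its value was 1.09. The subunit mcm7 was at 14.3, 10.6 and 11.6 CPM with hormone and 6.19, 11.4 and 12.5 CPM with vehicle (log2 fold change 0.28, SE 0.29). Here vehicle replicate 1 alone lay below the hormone libraries.

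More generally, vehicle replicate 3 stood above vehicle replicate 1 in many of the 24 replication and mitosis genes. Vehicle replicate 3 was the highest vehicle library for 19 of 24 (79.2%), against 41.0% of all records. Vehicle replicate 1 was the lowest for 10 of 24 (41.7%), against 31.5% of all records. Most of the other genes of the 24 were lowest in vehicle replicate 2. At least 2 times more CPM in vehicle replicate 3 than in vehicle replicate 1 was found in 13 of 24 (54.2%), against 6.76% of all records. The ratio of these libraries had a median of 2.03 over the 24 genes, 3.02 over the origin and helicase genes, and 1.001 over all records. It was highest, among those with counts in both, in mcm5 at 6.16, mcm4 at 4.81 and mcm6 at 4.20. Many of the 24 genes had few counts, such as mcm2 with 7 in vehicle replicate 1 and 20 in vehicle replicate 3. Of the 24, 18 were under 2 RPKM, beside a median of 6.36 RPKM for all records. The shares over all records were therefore not taken at a like level. On the hormone side replicate 3 was the lowest library for 13 of 24, against 24.6% of all records. These are descriptions of libraries with the same label, noticed in these data, and the 24 genes are not independent of each other.

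The mean log2 CPM of the 24 genes was 1.92, 1.83 and 1.44 with hormone and 1.26, 1.52 and 2.15 with vehicle. The vehicle libraries spanned the whole range of the hormone libraries. The difference between group means was 0.087, beside a SD within groups of 0.371, and it depended on single libraries: it was 0.341 without vehicle replicate 3, -0.105 without vehicle replicate 1 and -0.007 without hormone replicate 1.

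**Figure D4:**
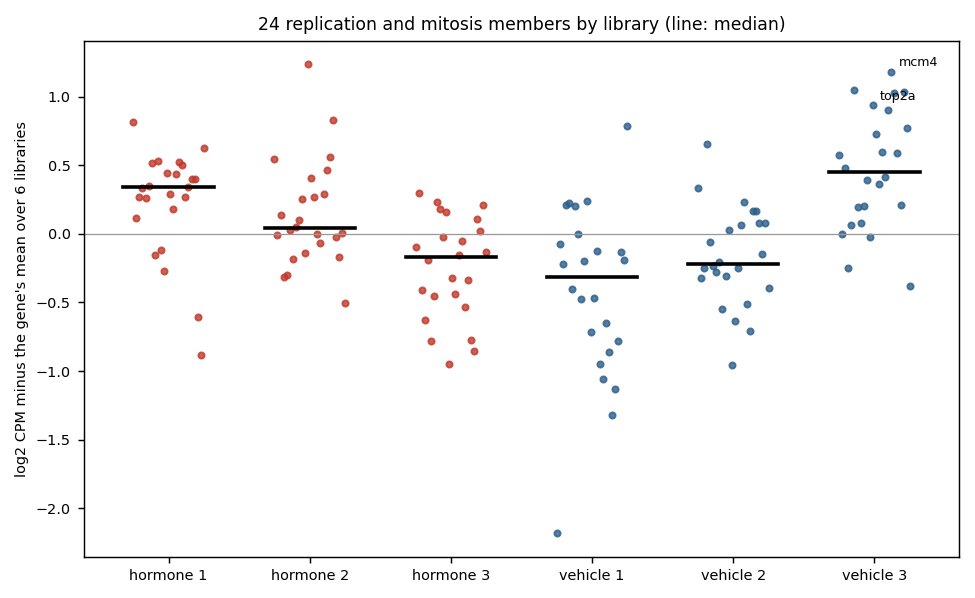
Log2 CPM of each of the 24 replication and mitosis genes minus its own mean over 6 libraries (points), by library, with the median as a bar. The median is highest in vehicle replicate 3 and lowest in vehicle replicate 1, and the 3 hormone libraries lie between them. The lowest point is cdk1 in vehicle replicate 1, where it had 0 counts.

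Marker lists of other cells moved between the same libraries. Markers of leukocytes (15 measured of 22 listed, none at 0 in any library) had a mean log2 CPM of 3.46, 3.84 and 3.70 with hormone and 3.498, 3.63 and 4.38 with vehicle, so vehicle replicate 3 was highest here too, and summed levels were 369 to 577 CPM with hormone and 524 to 849.6 CPM with vehicle. Red blood cell markers (12 of 15, none at 0) summed to 1527, 1053 and 668 CPM with hormone and 2827, 1074 and 3639 CPM with vehicle. Their mean log2 CPM in the vehicle libraries was 5.53, 4.19 and 5.56. By this mean, vehicle replicate 2 was the low vehicle library here. For the replication and mitosis genes the mean was lowest in vehicle replicate 1, at 1.26 beside 1.52 in vehicle replicate 2. By gene, vehicle replicate 1 was the lowest for only 10 of those 24, and most of the others were lowest in vehicle replicate 2. Retinal progenitor markers other than the cell cycle genes (10 measured) ran otherwise, at 4.85, 3.29 and 3.77 with hormone and 4.24, 4.19 and 3.57 with vehicle, lowest in the vehicle group in replicate 3. Inner retina markers (22 of 23, none at 0) were also lowest in the vehicle group in replicate 3, at 3.92 against 5.24 and 5.01. RPE markers were nearly level over the vehicle libraries, at 7.93, 7.93 and 8.06. The part of these cells in the replication and mitosis levels was not tested.

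**Figure D5:**
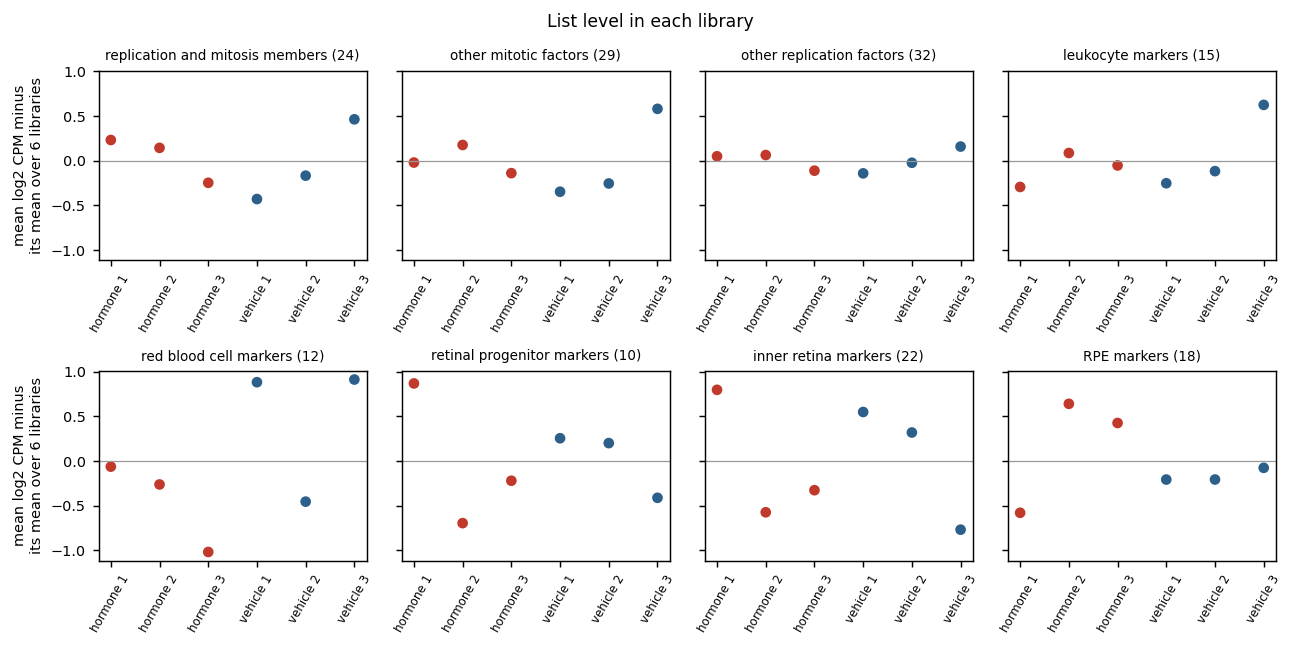
Mean log2 CPM of 8 gene lists minus its mean over 6 libraries (points), by library, with hormone in red and vehicle in blue and the number of genes in brackets. The replication and mitosis genes, the other mitotic and replication factors and the leukocyte markers are highest in vehicle replicate 3, where the inner retina markers are lowest. The red blood cell markers are nearly as high in vehicle replicate 1 as in vehicle replicate 3.

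The ubiquitin machinery that degrades cyclins and inhibitors differed little between groups. The subunits of the anaphase-promoting complex cdc16, cdc23, cdc26 and cdc27 and the conjugating enzymes cdc34a and cdc34b had log2 fold changes from -0.18 to 0.21, with a median of -0.09, and all 6 overlapped between groups. Most records of the table did likewise: 83.7% had an absolute log2 fold change under 0.5, and only 13.3% separated the groups. The Polo kinases of stress responses varied far more between libraries. The level of plk3 was 469, 1122 and 1188 CPM with hormone and 996, 1309 and 1466 CPM with vehicle, with hormone replicate 1 well below all others (log2 fold change -0.44, 95% interval -1.34 to 0.46). Its relative plk2b ran the other way in that library, at 18.01, 4.79 and 9.17 CPM with hormone and 9.83, 14.3 and 14.6 CPM with vehicle (log2 fold change -0.29, SE 0.46), as did plk2a, at 30.4, 10.9 and 12.05 CPM with hormone and 19.7, 19.9 and 12.4 CPM with vehicle (log2 fold change 0.03, SE 0.43).

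Of the 19 genes known for another process, 4 separated the groups, where 13.3% of all records did. The chaperone partner cdc37 was at 84.3, 89.1 and 90.1 CPM with hormone and 66.2, 66.9 and 62.7 CPM with vehicle. Libraries of a group differed little and the groups were well apart, at 87.8 ± 3.09 and 65.3 ± 2.27 CPM (SD, n = 3 per group), a log2 fold change of 0.43 (SE 0.11, 95% interval 0.16 to 0.69) with an adjusted p of 0.412 by edgeR and 0.00665 by DESeq2. Leaving out any library kept it between 0.40 and 0.46. An effector kinase of cdc42, cdc42bpb, was at 106, 125 and 114 CPM with hormone and 87.0, 89.9 and 98.3 CPM with vehicle (log2 fold change 0.33, adjusted p 0.688 by edgeR).

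The GTPase cdc42 itself stood lower, at 194, 282 and 287 CPM with hormone and 347, 321 and 345 CPM with vehicle (log2 fold change -0.41, SE 0.19, 95% interval -0.86 to 0.04). The nucleolar protein mki67ip (now nifk), which binds the proliferation antigen Ki-67 in mammals, was at 12.7, 14.3 and 13.3 CPM with hormone and 12.3, 9.92 and 11.4 CPM with vehicle (log2 fold change 0.26, SE 0.15). Without the 19 genes, the median log2 fold change of the other 50 was 0.01, and DESeq2 called 1 of them, ccne2, beside 1.59% of all records.

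Some cell cycle genes stand in the table under clone names and were found only through current RefSeq symbols, where 20 further records met the same choice. That choice was again by letters alone, so the 20 also hold genes of other processes, such as the cdc42 relatives cdc42ep3 and cdc42se2. None of them was called by edgeR or DESeq2, beside 0.00546% and 1.59% of all records. None had an unadjusted p under 0.05 by edgeR, beside 6.88% of all records. With so few records, these counts differ little from those shares. The median log2 fold change was -0.14, with 8 positive and 12 negative values. The groups separated in 2, both lower with hormone (cdc42se2 and orc2, named after their values were seen), beside 6.4% of all records. The G1 kinase cdk4 was at 4.14, 9.33 and 8.24 CPM with hormone and 8.17, 7.49 and 8.10 CPM with vehicle (log2 fold change -0.12). Again hormone replicate 1 was the lowest, as for ccnd1 and ccnd2a. The origin licensing factor cdc6 was low, at 1.07, 1.65 and 1.44 CPM with hormone and 1.19, 0.812 and 1.80 CPM with vehicle. The G1 inhibitor cdkn2c and the activator e2f3 had log2 fold changes of -0.61 and 0.12, with overlap in both.

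Other genes of the same pathways, listed by function, gave few differences. Of 32 measured replication fork and licensing genes, none passed edgeR or DESeq2, beside 0.00546% and 1.59% of all records. Only 1, hells, had an unadjusted p under 0.05 by edgeR. The median log2 fold change was 0.05 (18 positive, 14 negative). In that list the groups did not overlap for 3 of the 32 genes, beside 13.3% of all records, and the 1 gene by unadjusted p stands beside 6.88% of all records. The chromatin remodeller hells was at 4.40, 6.77 and 5.35 CPM with hormone and 2.86, 3.70 and 3.40 CPM with vehicle (log2 fold change 0.74, SE 0.25, adjusted p 0.624 by edgeR). The single-strand binding proteins rpa1 and rpa3 had log2 fold changes of 0.25 and -0.33. Vehicle replicate 3 was the highest vehicle library for 14 of the 32 (43.8%), near the 41.0% of all records. Vehicle replicate 1 was the lowest vehicle library for 15 of the 32, against 31.5% of all records. The mean log2 CPM of the list was 2.41, 2.42 and 2.25 with hormone and 2.22, 2.34 and 2.52 with vehicle.

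Among 29 measured mitotic genes outside the 69, none passed edgeR or DESeq2, beside 0.00546% and 1.59% of all records. Only 1, kif11, had an unadjusted p under 0.05 by edgeR, beside 6.88% of all records. The median log2 fold change was -0.03 (13 positive, 16 negative). The spindle motor kif11 was at 2.80, 4.54 and 2.27 CPM with hormone and 5.31, 8.30 and 10.3 CPM with vehicle, without overlap and with the highest value in vehicle replicate 3 (log2 fold change -1.30, SE 0.37, adjusted p 0.485 by edgeR). The CDK1-inhibiting kinase pkmyt1 had a log2 fold change of -0.30, also without overlap. These 2 were the only genes of the list that separated, both lower with hormone, beside 6.4% of all records. Vehicle replicate 3 was the highest vehicle library for 23 of the 29 (79.3%), and the mean log2 CPM of the list was 1.57, 1.77 and 1.45 with hormone and 1.24, 1.34 and 2.17 with vehicle.

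Of 32 measured genes of the retinoblastoma and stress routes to cycle arrest, none passed edgeR, beside 0.00546% of all records. DESeq2 called 1, beside 1.59% of all records. That gene was also the only 1 with an unadjusted p under 0.05 by edgeR, beside 6.88% of all records: phlda3, known in mammals for restraining Akt. It was at 16.5, 33.7 and 37.8 CPM with hormone and 9.44, 11.2 and 9.00 CPM with vehicle, each hormone library above each vehicle library. The log2 fold change was 1.57 (SE 0.32, 95% interval 0.82 to 2.33), with an adjusted p of 0.273 by edgeR and 0.00231 by DESeq2, and without hormone replicate 1 the edgeR value was 0.0188. It carried the mark of the authors' deposited table, as did 0.934% of all records. The stress gene sesn1 (log2 fold change 0.31) stood higher and the antiproliferative gene btg3 (-0.58) lower without overlap, and neither was called. With phlda3, 2 genes of the list thus separated higher and 1 lower, beside 6.86% and 6.4% of all records. The list's median log2 fold change was -0.02 (13 positive, 19 negative).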

How the data were processed

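RNA of 6 zebrafish RPE libraries was analysed; bullfrog samples of the same series were not used here. Bowtie 0.12.7 and edgeR are named in the submitters' processing notes; the transcript set, genome build and use of strand are not given in the sources used here. The authors deposited raw counts per record and library, matched to samples by title. They also deposited a score per library (RPKM rounded to whole numbers, within 0.494% of count over length and total for values of at least 100), RPKM group means, and log2 fold changes, log2 mean CPM and p-values of their edgeR test, whose sign was turned to hormone over vehicle. A nameless entry equal to the sum of all records in each library was left out. In every record 3 or more libraries reached 1 CPM, and filterByExpr removed none.

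The test was edgeR 4.0.16 in R 4.3.3 (TMM, quasi-likelihood, Benjamini-Hochberg at 0.05 over 18315 records). DESeq2 1.42.0 and limma 3.58.1 voom were alternatives, with other scalings, a replicate block, each library left out and the authors' calls. On simulated data, edgeR found 18% of the changes of 1 on the log2 scale and DESeq2 40%. These changes were planted in records with a mean above 2 CPM, and counts were drawn with edgeR's dispersion estimates. Of 146 edgeR calls there, 5 were of unchanged records, and of 214 DESeq2 calls, 50 were. Log2 CPM used a prior count of 2. RPKM means were computed from TMM-scaled CPM and record length. The genes, roles and lists were chosen with earlier results of these data known. Named genes were those past the test, up to 8 on each side by smallest p among those without overlap whose log2 CPM averaged 1 or more, the 10 highest by RPKM, a fixed set of core cycle genes and, per list, up to 3 on each side without overlap. Members outside this rule are named to account for all 69 and were chosen after their values were seen. Of the 69 genes, 64 had an accession in the RefSeq table (GRCz12tu), used for current symbols only.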

Additional observations from a re-analysis of the deposited data

How the results depend on the processing

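The count of records past the test over the whole table, 1 by edgeR, was 8 with total count scaling, 292 by DESeq2, 0 by limma voom, 0 with the replicate block, 171 in the authors' deposited table and 0 at an adjusted p under 0.01. Leaving out 1 library gave 0 to 105, the latter without hormone replicate 1. Whether the replicate numbers pair the samples was not settled. Same-numbered libraries deviated from their group means with correlations of 0.46, -0.39 and 0.10. With 3 libraries in each group the deviations depend on each other, so these values cannot decide it. With the block, as in all other alternatives except DESeq2 (2), the count among the 69 genes was 0. Their median log2 fold change stayed between -0.061 and 0.047 when each library was left out and was -0.027 with total count scaling. The hormone minus vehicle difference in mean log2 CPM of the 24 replication and mitosis genes ran from -0.105 to 0.341 when each library was left out. The causes of these changes were not tested.

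Of 53 genes named by the rule, 31 kept their direction in every alternative, 14 turned only when a library was left out and 8 turned in another alternative. With total count scaling, log2 fold changes turned to -0.0044 (cdc14ab), -0.014 (cdc73), -0.048 (ccnd1), 0.0027 (mcm4), -0.0046 (cdc20) and -0.057 (e2f5). With voom they turned to -0.022 (ccnd1), 0.399 (mcm4), 0.227 (mcm5) and 0.0094 (pold1), and with the replicate block to -0.030 (ccnd1), 0.297 (mcm4), 0.097 (mcm5) and 0.0027 (pold1). Leaving out 1 library gave ranges that crossed 0 for aurkb (-0.088 to 0.867), ccnd1 (-0.175 to 0.277), ccnd2a (-0.466 to 0.197), cdc14ab (-0.146 to 0.126), cdc20 (-0.145 to 0.244), cdc5l (-0.155 to 0.068), cdc6 (-0.088 to 0.481), cdk4 (-0.337 to 0.151), e2f3 (-0.028 to 0.382), e2f4 (-0.017 to 0.181), e2f5 (-0.075 to 0.149), mcm2 (-0.244 to 0.879), mcm4 (-0.375 to 1.086), mcm5 (-0.536 to 0.606), mcm6 (-0.172 to 0.740), plk1 (-0.262 to 0.503), plk2b (-0.896 to 0.060), pold1 (-0.151 to 0.267), pole (-0.653 to 0.267), rrm1 (-0.077 to 0.307) and top2a (-0.128 to 1.397). Depth limits the rarest genes: 8 of the 69 had fewer than 100 counts over 6 libraries, 5 of them among the 24 replication and mitosis genes. Promoter motif matches were not run, since promoter sequences were not used here. Alternatives with records found by current symbol, without all genes of another process and with cdk2ap2 were chosen after seeing the data.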

Other observations

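Levels in the list of 32 measured retinoblastoma and stress genes ran from 0.830 to 192 RPKM, with a median of 12.97 RPKM. The genes below were chosen after their values were seen. The antiproliferative genes btg1 and btg2 were at 192 and 140.0 RPKM (mean over 6 libraries), beside 6.36 RPKM for the median of all records. The CPM values of btg1 ran at 179, 263 and 337 with hormone and 258, 309 and 373 with vehicle (log2 fold change -0.27, SE 0.27). Those of btg2 lay at 192, 228 and 317 with hormone and 178, 467 and 365 with vehicle (log2 fold change -0.45, SE 0.37), and the vehicle libraries held both the lowest and the highest value. The forkhead factor foxo3b, which promotes arrest in mammalian cells, was at 45.4 RPKM, with 251, 147 and 154 CPM with hormone and 276, 231 and 180.5 CPM with vehicle. Of the pocket proteins, which hold E2F factors, rbl2 at 18.02 RPKM exceeded rb1 at 1.86 RPKM. Neither separated hormone from vehicle.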
